A study of Mus musculus with 6 samples.

Results

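The 41 collagen genes described here are the genes whose symbol has the form Col, a number, the letter a and a number, out of 21937 genes with reads counted over their exons. They were chosen by symbol and not by any measured value. They comprise 11 fibrillar collagens, 6 basement membrane collagens (all of type IV) and 24 others, which are 9 FACIT collagens, 4 beaded filament collagens, 4 transmembrane collagens, 3 short-chain collagens, 2 multiplexins, the anchoring fibril collagen Col7a1 and Col28a1. Chromatin immunoprecipitation followed by sequencing (ChIP-seq) recovers the DNA bound to a modified histone with an antibody and counts its reads along genes. It was done in mK4 and mK3, each 1 immortalized line from the metanephros, the embryonic kidney, of CD1 mice at embryonic day 11.5, with no treatment named in the labels. As background, mK3 has been used as a model of early, uninduced metanephric mesenchyme and mK4 as a model of later, induced mesenchyme. Each line had 1 library labelled H3K4 (Abcam ab8898), 1 labelled H3K27 (Active Motif 39535) and 1 of input chromatin, so every value comes from 1 library and no difference between the lines has a replicate check.

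Collagens are triple-helical proteins of the extracellular matrix built from alpha chains. Fibrillar collagens form the fibres of connective tissue and are typical products of mesenchymal and stromal cells, FACIT collagens sit on the surface of those fibres, and type IV collagen forms the network of basement membranes, which surround epithelia such as the renal tubule and the glomerulus. Trimethylation of histone H3 at lysine 27 is a mark of genes held silent by Polycomb proteins, and methylation at lysine 4 is found at promoters and enhancers in use. Whether either antibody reads mono-, di- or trimethylated lysine is not in the labels. The catalogue number under the H3K4 label is generally known for an antibody against trimethylated lysine 9 of histone H3, a heterochromatin mark, so the libraries are called here by their labels, and what the library labelled H3K4 measures cannot be told from the labels. In it, the median of 26 housekeeping genes was -0.05 in mK4 and -0.04 in mK3 on the log2 scale over input, and that of 332 Zfp zinc finger genes, a class known for lysine 9 trimethylation, was -0.002 in mK4 and -0.057 in mK3. At 2-fold or more over input, with the pseudocount defined below, were 3.85% of the housekeeping genes in mK4 and 15.4% in mK3, 2.41% of the Zfp genes in mK4 and 4.82% in mK3, and 3.69% of all genes in mK4 and 4.94% in mK3. The housekeeping genes so called were Psmb2 in mK4 and B2m, Psmb2, Rplp0 and Tubb5 in mK3, and the actin gene Actb, chosen after its values were seen, lay at 2.00 times input in mK4 (95% counting interval 1.49 to 2.72) and 1.91 times in mK3 (1.24 to 3.01). No RNA was measured, so the levels below say where reads lay and not which collagens the cells made, and the tissue of the lines could not be checked by expression.

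Reads counted over exons summed to 714011 in mK4 and 595305 in mK3 for the library labelled H3K4, to 481235 in mK4 and 593079 in mK3 for H3K27, and to 386695 in mK4 and 311409 in mK3 for input. A collagen gene held between 7 and 202 reads in a library. Collagen genes are long, with a median of 5694 exon bases against 2300 for all genes, so levels are given as RPKM, reads per kilobase of exon scaled to the counted reads of the library. Intervals in parentheses are exact 95% Clopper-Pearson counting intervals of a ratio of read shares. They cover counting error only. Where interval counts of collagens are set against other genes, the others are the 8686 genes with at least 2778 exon bases, the length of the shortest collagen gene. These long genes had a median of 4145 exon bases, so they are not matched to the collagens in length. Longer genes tend to hold more reads and so narrower intervals, which can raise the interval counts of collagens above those of long genes. How much was not tested.

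Promoters are shown for Col11a2 and Col8a1, whose H3K27 level was higher in mK4, for Col7a1, whose H3K27 level was lower in mK4, and for Col1a2, whose H3K4 and input levels were both lower in mK4. The sequences are from RefSeq on build GRCm38.p6, the 250 bases that end just before the annotated start, given 5′ to 3′ on the strand of the gene. Capitals mark the CCAAT box, the GC box core GGGCGG and the TATA motif TATAAA on either strand, 3 motifs common in promoters, and no 2 of the marked motifs overlapped. These windows lie outside the exons, so the reads counted here were not read from them, and a match of letters is a description only. The windows are chr17:34038888-34039137 on the plus strand for Col11a2, chr16:57754738-57754987 on the minus strand for Col8a1, chr9:108953336-108953585 on the plus strand for Col7a1 and chr6:4505368-4505617 on the plus strand for Col1a2.
Col11a2: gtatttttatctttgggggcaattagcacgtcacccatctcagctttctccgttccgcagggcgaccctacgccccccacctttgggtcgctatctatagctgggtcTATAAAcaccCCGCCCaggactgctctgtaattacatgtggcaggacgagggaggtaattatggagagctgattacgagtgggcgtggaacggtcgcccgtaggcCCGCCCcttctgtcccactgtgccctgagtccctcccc
Col8a1: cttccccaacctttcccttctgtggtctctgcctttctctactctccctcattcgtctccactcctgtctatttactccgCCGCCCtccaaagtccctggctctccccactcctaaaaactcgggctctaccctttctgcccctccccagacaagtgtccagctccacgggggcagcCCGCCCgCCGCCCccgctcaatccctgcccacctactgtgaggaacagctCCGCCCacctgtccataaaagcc
Col7a1: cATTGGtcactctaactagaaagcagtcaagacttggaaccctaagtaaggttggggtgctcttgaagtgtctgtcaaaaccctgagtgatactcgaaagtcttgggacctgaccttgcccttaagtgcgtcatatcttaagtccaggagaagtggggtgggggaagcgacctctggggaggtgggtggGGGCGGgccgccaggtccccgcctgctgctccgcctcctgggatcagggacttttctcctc
Col1a2: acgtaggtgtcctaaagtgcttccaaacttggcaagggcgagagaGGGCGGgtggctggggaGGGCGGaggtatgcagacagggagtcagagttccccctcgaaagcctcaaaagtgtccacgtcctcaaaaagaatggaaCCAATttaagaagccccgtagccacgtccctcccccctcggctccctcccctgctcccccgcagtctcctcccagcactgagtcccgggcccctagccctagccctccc
Of the 41 collagens, 33 had such a window, with 36 windows among them. Where a collagen had several, the counts below use the one with the highest ratio of observed to expected CpG. All windows were taken without such a choice, so the 2 sides are not chosen alike. CCAAT was found in 12 of the 33, where 33.8% of all 32851 windows held it. GGGCGG was found in 20 of the 33, against 32.7% of all windows, and TATAAA in 5 (Col10a1, Col11a2, Col13a1, Col17a1 and Col3a1), against 12.4%. The ratio of observed to expected CpG had a median of 0.467 in collagen windows and 0.373 in all windows. Across the 33 genes it had a Pearson r of -0.04 in mK4 and -0.20 in mK3 with H3K27 over input, as a description over genes of the same libraries.

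As a family, the collagens held more H3K27 reads than their share of input, and slightly fewer reads under the H3K4 label. The summed H3K27 share was 1.20 times the input share in mK4 (1.13 to 1.28) and 1.16 times in mK3 (1.09 to 1.24). The summed H3K4 share was 0.871 times the input share in mK4 (0.817 to 0.928) and 0.889 times in mK3 (0.829 to 0.954). The H3K27 excess was thus modest and of similar size in both lines. Per exon length, the median collagen had an H3K27 level of 19.4 RPKM in mK4 and 18.8 RPKM in mK3, where the median of all genes was 13.7 RPKM in mK4 and 15.0 RPKM in mK3. In the libraries labelled H3K4 the median collagen lay at 13.9 RPKM in mK4 and 13.5 RPKM in mK3, close to the 13.1 RPKM in mK4 and 13.5 RPKM in mK3 of all genes. In input it lay at 15.1 RPKM in mK4 and 15.4 RPKM in mK3, against 13.9 RPKM in mK4 and 14.3 RPKM in mK3 for all genes.

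**Figure D1:**
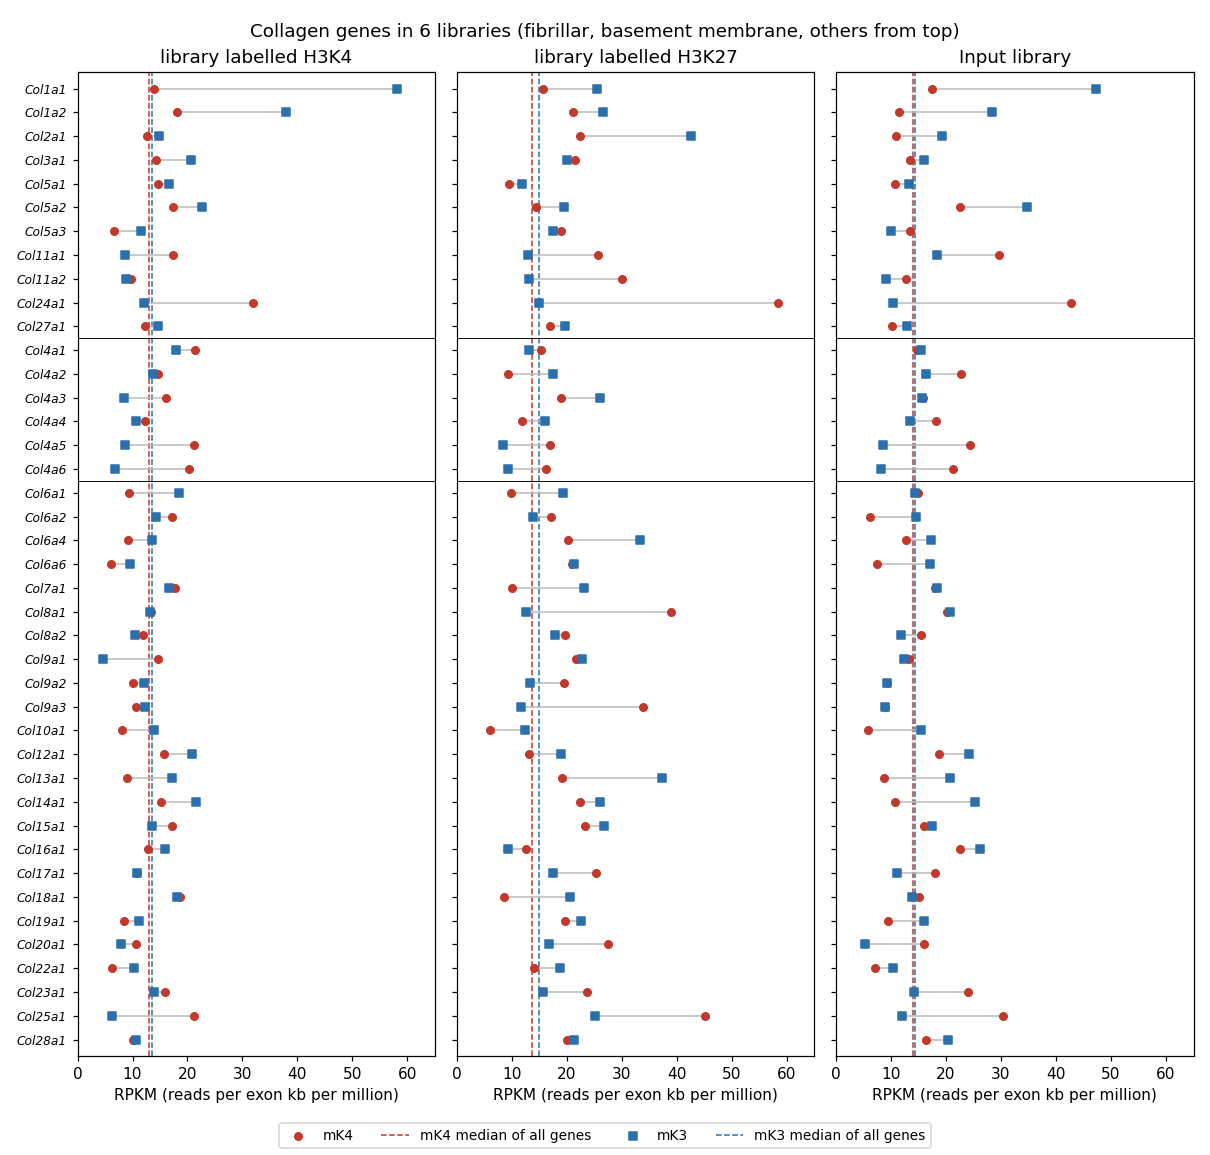
RPKM of the 41 collagen genes in the libraries labelled H3K4 (left), H3K27 (middle) and input (right), with mK4 as red circles, mK3 as blue squares and dashed lines at the median of all genes; each point is 1 library. Col1a1 stands apart at 58.0 RPKM in mK3 under the H3K4 label, and Col24a1 at 58.3 RPKM in mK4 for H3K27.

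The excess was spread over many genes rather than carried by a few strongly marked ones. A gene was called marked where its scaled reads plus a pseudocount of 5 reached 2-fold its own input. H3K27 marked 4 of 41 collagens in mK4 (Col11a2, Col6a2, Col6a6 and Col9a3), where 9.06% of all genes were marked. In mK3 it marked 2 (Col20a1 and Col2a1), where 10.3% of all genes were marked. H3K4 marked 1 collagen in mK4, Col6a2, against 3.69% of all genes, and 0 in mK3, against 4.94%. These shares are near those of all genes or below them. The lower bar of a counting interval above 1 gave more members: 17 of 41 collagens (41.5%) had H3K27 above input in mK4, against 16.0% of long genes, and 11 (26.8%) did in mK3, against 15.2%. H3K27 lay below input in 7 members in mK4 and 4 in mK3, where long genes gave 16.6% in mK4 and 15.8% in mK3.

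Summed by class, the H3K27 share over input was 1.28 in mK4 (1.14 to 1.43) and 1.03 in mK3 (0.910 to 1.16) for fibrillar collagens, 0.773 in mK4 (0.659 to 0.907) and 1.20 in mK3 (1.0 to 1.44) for type IV collagens, and 1.33 in mK4 (1.22 to 1.46) and 1.23 in mK3 (1.13 to 1.35) for the others. The type IV genes in mK4 were the 1 class with less H3K27 than input. By gene, 6 of 11 fibrillar collagens lay above input in mK4 and 3 did in mK3, and 11 of the 24 other collagens did in mK4 and 7 in mK3. No type IV gene lay above input in mK4, and Col4a3 alone did in mK3. In both lines, 8 genes lay above input: the fibrillar Col2a1 and Col27a1, the FACIT genes Col19a1, Col20a1 and Col22a1, the beaded filament gene Col6a4 and the transmembrane genes Col13a1 and Col25a1. The share of long genes above or below input by their intervals in both lines was not computed, so such overlaps have no background here. Col2a1, the main collagen of cartilage, was 2.05 times its input in mK4 (1.23 to 3.52) and 2.22 times in mK3 (1.49 to 3.40). Col22a1 was 1.99 times in mK4 (1.11 to 3.72) and 1.81 times in mK3 (1.09 to 3.15). Col5a2, a chain of the fibril-regulating type V collagen, and the FACIT gene Col16a1 lay below input in both lines, Col16a1 at 0.559 times in mK4 (0.345 to 0.897) and 0.354 times in mK3 (0.213 to 0.580). Counting any excess, however small, on the log2 scale with pseudocount, 22 of 41 collagens (53.7%) had H3K27 above input in both lines, against 32.8% of all genes and 30.0% of long genes.

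**Figure D2:**
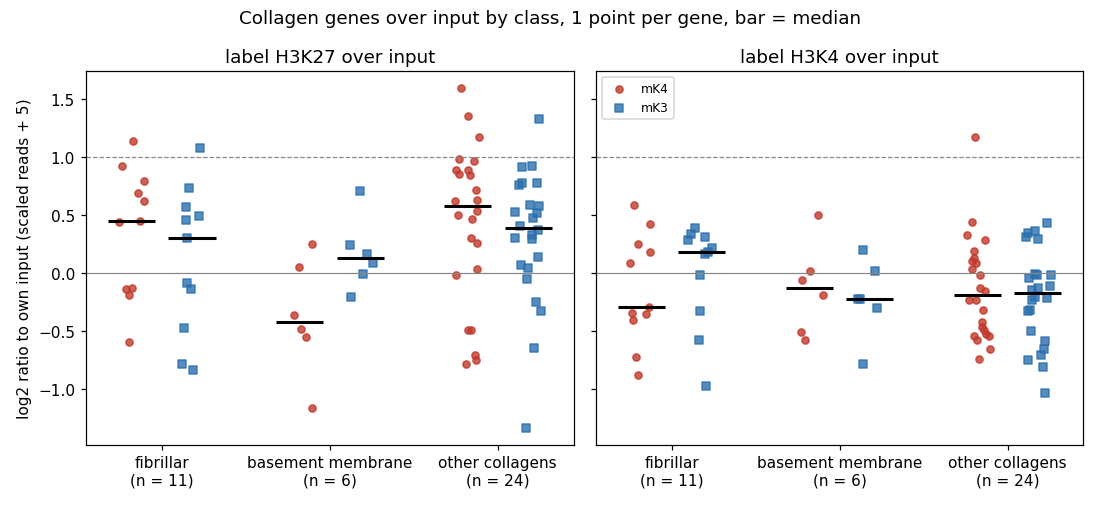
Log2 ratio to the input of the same line, on scaled reads plus 5, for H3K27 (left) and H3K4 (right), with 1 point per gene, mK4 in red, mK3 in blue, bars at the medians and a dashed line at the 2-fold mark. The H3K27 median of the 6 type IV genes was -0.43 in mK4 and 0.12 in mK3, while fibrillar and other collagens had medians above 0 in both lines.

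Under the H3K4 label, Col6a2, a chain of the beaded filament collagen of type VI, was the 1 collagen with an interval above input in mK4, and 0 were above in mK3, where long genes gave 6.23% in mK4 and 6.36% in mK3. Members below input numbered 8 in mK4 and 7 in mK3, where long genes gave 10.1% in mK4 and 9.65% in mK3. Col11a1 and Col16a1 were below in both lines, and the share of long genes below in both was not computed. The Col6a2 excess rests on its input: under the H3K4 label it had 17.1 RPKM in mK4 and 14.3 RPKM in mK3, for H3K27 17.1 RPKM in mK4 and 13.9 RPKM in mK3, and in input 6.19 RPKM in mK4 and 14.5 RPKM in mK3. Its input held 9 reads in mK4 and 17 in mK3.

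Set against each other without the input, H3K27 exceeded the H3K4 label for about as many collagens in each line. The summed H3K27 share of the family was 1.38 times its H3K4 share in mK4 (1.30 to 1.46) and 1.30 times in mK3 (1.23 to 1.38). H3K27 lay above H3K4 by its interval in 21 of 41 genes in mK4 (51.2%), against 22.5% of long genes, and in 17 in mK3 (41.5%), against 23.9%. Of these, 12 were the same in both lines. The share of long genes so called in both lines was not computed, so this overlap is not read as a trait of the collagens. It lay below in 4 genes in mK4 (Col18a1, Col4a2, Col5a1 and Col7a1), against 19.4% of long genes, and in 3 in mK3 (Col16a1, Col1a1 and Col1a2), against 20.4%, and no gene was below in both. The balance of type I collagen therefore lay toward the H3K4 label in mK3 but not in mK4: Col1a1 had an H3K27 share of 1.14 times its H3K4 share in mK4 (0.715 to 1.79) and 0.441 times in mK3 (0.329 to 0.585). The reverse was seen for Col7a1, at 0.566 times in mK4 (0.392 to 0.804) and 1.40 times in mK3 (1.06 to 1.85).

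Between the lines, the family as a whole held the same share of reads within counting error, whereas its classes did not. The summed share in mK4 over mK3 was 0.966 for H3K4 (0.912 to 1.02), 1.02 for H3K27 (0.967 to 1.08) and 0.987 for input (0.916 to 1.06). For the fibrillar class it was 0.814 for H3K4 (0.737 to 0.899), 1.19 for H3K27 (1.08 to 1.32) and 0.959 for input (0.840 to 1.10). For the type IV genes it was 1.59 for H3K4 (1.37 to 1.85), 0.950 for H3K27 (0.816 to 1.11) and 1.47 for input (1.22 to 1.78). As sums, the fibrillar class thus held less H3K4 and more H3K27 in mK4 with no difference of input beyond counting error. The type IV genes held more H3K4 and more input together. The even fibrillar input pooled genes that differed both ways. At 1.5-fold with an interval off 1, Col11a1 and Col24a1 of chromosome 3 had more input in mK4, and Col1a1, Col1a2 and Col5a2 had less. Of the 11 fibrillar genes, 4 had a higher input level in mK4: Col11a1, Col24a1 and, off chromosome 3, Col11a2 and Col5a3. All other fibrillar genes had a lower one, so off chromosome 3 the input lay mostly lower in mK4 and was not even. The summed fibrillar input ratio without chromosome 3 was not computed. Both H3K27 and H3K4 sums rest in part on genes of chromosomes 3 and X: with the genes on chromosomes 3, 7, 14 and X left out, which had stood out by their input in earlier results of these data, the fibrillar H3K27 ratio was 0.877 and so turned in direction, the fibrillar H3K4 ratio was 0.617, and the type IV H3K4 ratio was 1.29. The ratios with these chromosomes left out were not divided by the input of the remaining genes, so they show no direction relative to input. With all chromosomes kept and divided by the same ratio of the inputs, the type IV ratio was 1.08 for H3K4 and 0.645 for H3K27. The fibrillar ratio so divided was 0.848 for H3K4 and 1.245 for H3K27. The other collagens lay at 0.917 for H3K4 (0.844 to 0.997), 0.953 for H3K27 (0.884 to 1.03) and 0.880 for input (0.792 to 0.978).

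**Figure D3:**
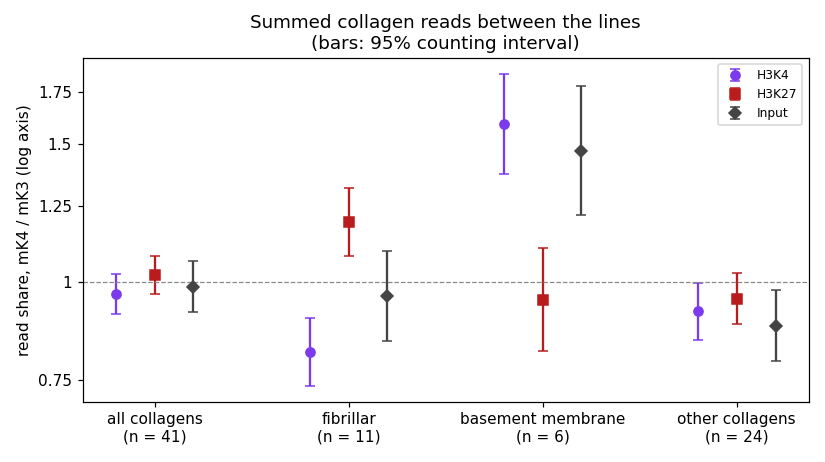
Ratio of summed read shares, mK4 over mK3, on a log axis for all collagens and each class, with H3K4, H3K27 and input side by side and 95% counting intervals. The type IV genes lie above 1 for H3K4 and input and near 1 for H3K27, and the fibrillar class lies below 1 for H3K4 and above 1 for H3K27.

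Of the 41 genes, 2 were marked and at least 2-fold higher for H3K27 in mK4, Col11a2 and Col9a3, where 0.889% of all genes were. Where background was taken from exon length and not from input, 2 were again called, but they were Col24a1 and Col8a1. None was lower for H3K27, where 0.934% of all genes were, and none was higher or lower for H3K4, where 0.424% were higher and 0.392% lower. At 1.5-fold with a counting interval off 1, 10 collagens were higher for H3K27 in mK4 (10.1% of long genes) and 8 were lower (11.4%). For H3K4, 7 were higher (11.6%) and 5 lower (13.1%). For input, 7 were higher (9.33%) and 8 lower (10.5%). As shares of the 41 genes, 24.4% were higher and 19.5% lower for H3K27, and 17.1% higher and 12.2% lower for H3K4. For input, 17.1% were higher and 19.5% lower, so the collagen shares exceeded those of long genes in input as well. Of the 10 genes higher for H3K27, 7 were also higher in input, and of the 8 lower for H3K27, 2 were also lower in input. For H3K4, 5 of the 7 higher genes were also higher in input, and 3 of the 5 lower genes were also lower. Across the 41 collagens the difference of input between the lines had a Pearson r of 0.77 with that of H3K4 and 0.60 with that of H3K27, where the 8686 long genes gave 0.51 for H3K4 and 0.44 for H3K27. These are correlations across genes of the same 6 libraries, which share chromosomes and depth, and are a description only.

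**Figure D4:**
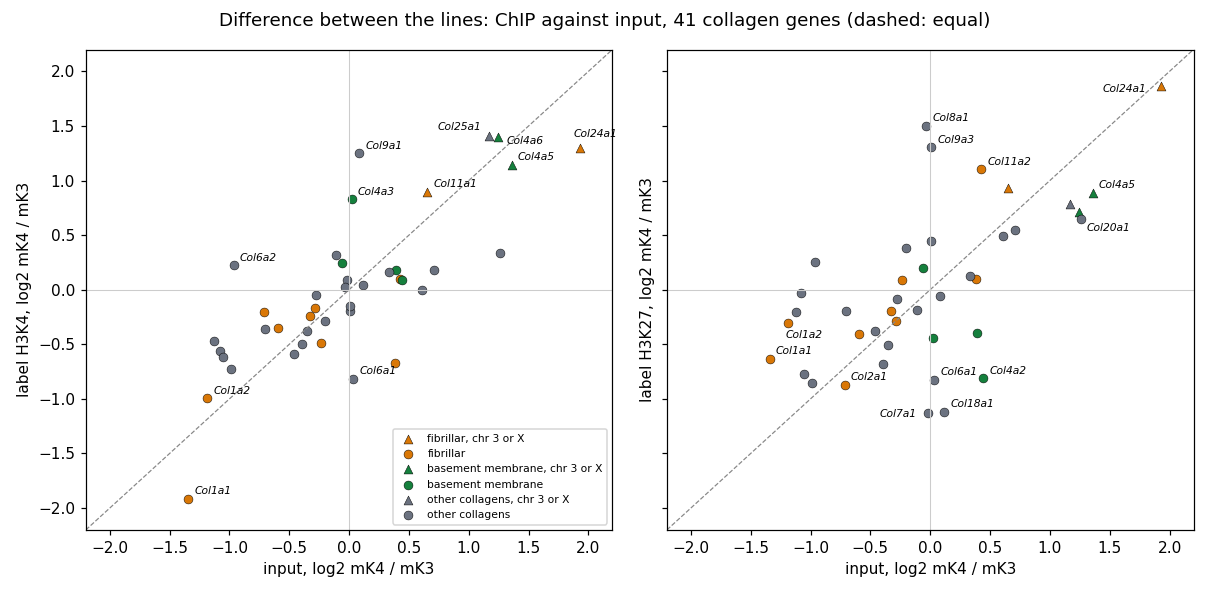
Log2 difference mK4 over mK3 of the H3K4 (left) and H3K27 (right) reads against that of input for 41 collagen genes, on scaled reads plus 5, coloured by class, with triangles for genes on chromosomes 3 and X and a dashed line where both are equal. Triangles lie in the upper right of both panels. Col8a1 and Col9a3 for H3K27 and Col9a1 and Col4a3 for H3K4 lie high at an input difference near 0, and Col7a1 and Col18a1 lie low for H3K27.

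Type I collagen is the main fibre of bone, skin and stroma. Its chain Col1a1 showed the largest difference in H3K4 level of the family, before any account of input. Under the H3K4 label, Col1a1 had 13.9 RPKM in mK4 and 58.0 RPKM in mK3, from 47 reads in mK4 and 164 in mK3. Its level in mK3 was above that of 97.7% of all genes, and it was 4.19-fold lower in mK4 (3.01 to 5.92). Its input differed too, at 17.4 RPKM in mK4 and 47.3 RPKM in mK3, or 2.72-fold lower in mK4 (1.76 to 4.27). The mK4 input stood above 65.8% of genes and the mK3 input above 98.0%. Over input, its H3K4 share was 0.795 times in mK4 (0.497 to 1.29) and 1.23 times in mK3 (0.921 to 1.65), so that neither line differed from input beyond counting error. Its H3K27 level was 15.8 RPKM in mK4 and 25.6 RPKM in mK3, or 1.62-fold lower (1.07 to 2.49), a smaller step than that of its input.

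Col1a2, the partner chain on another chromosome, showed the same order. Under the H3K4 label it had 18.1 RPKM in mK4 and 37.8 RPKM in mK3, or 2.09-fold lower (1.54 to 2.87), and in input 11.4 RPKM in mK4 and 28.4 RPKM in mK3, or 2.48-fold lower (1.48 to 4.29). Its H3K27 level was 21.2 RPKM in mK4 and 26.6 RPKM in mK3, with a ratio of 0.797 whose interval held 1 (0.553 to 1.14). With the lower input, its H3K27 share was 1.85 times input in mK4 (1.12 to 3.17) and 0.936 times in mK3 (0.645 to 1.37). The input difference at the type I genes was larger than that of their surroundings. The 10 genes on each side had a log2 input difference of -0.19 around Col1a1 and -0.47 around Col1a2, against -1.34 at Col1a1 and -1.19 at Col1a2 themselves. What the input difference contributes to the H3K4 difference was not tested beyond its subtraction, which left -0.57 for Col1a1 and 0.19 for Col1a2 on the log2 scale.

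Among the remaining fibrillar genes off chromosome 3, Col3a1, the type III collagen of vessel walls and soft tissue, had 14.2 RPKM in mK4 and 20.6 RPKM in mK3 under the H3K4 label, 21.5 RPKM in mK4 and 20.1 RPKM in mK3 for H3K27, and 13.4 RPKM in mK4 and 16.0 RPKM in mK3 in input. Its H3K4 ratio was 0.689 (0.476 to 0.993), below the 1.5-fold step. Col5a3, a minor chain of type V collagen, was 1.74-fold lower under the H3K4 label (1.06 to 2.89), with 6.60 RPKM in mK4 and 11.5 RPKM in mK3, while its H3K27 level was 18.9 RPKM in mK4 and 17.5 RPKM in mK3 and its input 13.4 RPKM in mK4 and 9.92 RPKM in mK3. The cartilage collagens Col2a1 and Col11a2 differed in opposite directions in H3K27 level. With the own input difference subtracted, the log2 H3K27 difference was -0.16 for Col2a1 and 0.68 for Col11a2. Col2a1 had 22.4 RPKM in mK4 and 42.6 RPKM in mK3, or 1.90-fold lower (1.38 to 2.64), with input at 10.97 RPKM in mK4 and 19.2 RPKM in mK3 and H3K4 at 12.7 RPKM in mK4 and 14.9 RPKM in mK3. Col11a2, a type XI chain whose promoter is printed above, had 30.1 RPKM in mK4 and 13.1 RPKM in mK3, a ratio of 2.30 (1.57 to 3.39). Its input was 12.8 RPKM in mK4 and 9.06 RPKM in mK3, its H3K4 level 9.64 RPKM in mK4 and 8.89 RPKM in mK3, and its H3K27 share was 2.35 times input in mK4 (1.52 to 3.75) and 1.44 times in mK3 (0.799 to 2.74). For Col5a1, Col5a2 and Col27a1 the intervals held 1 for both marks. Col5a1, a main chain of type V collagen, had 9.57 RPKM in mK4 and 11.9 RPKM in mK3 for H3K27, 14.7 RPKM in mK4 and 16.7 RPKM in mK3 under the H3K4 label, and 10.7 RPKM in mK4 and 13.3 RPKM in mK3 in input. Col5a2 had 14.3 RPKM in mK4 and 19.5 RPKM in mK3 for H3K27, 17.4 RPKM in mK4 and 22.7 RPKM in mK3 under the H3K4 label, and 22.5 RPKM in mK4 and 34.7 RPKM in mK3 in input. Col27a1, a fibrillar collagen of cartilage, had 17.0 RPKM in mK4 and 19.7 RPKM in mK3 for H3K27, 12.2 RPKM in mK4 and 14.6 RPKM in mK3 under the H3K4 label, and 10.1 RPKM in mK4 and 12.9 RPKM in mK3 in input.

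The type IV genes lie in head-to-head pairs, Col4a1 with Col4a2, Col4a3 with Col4a4 and Col4a5 with Col4a6. Col4a1 and Col4a2 encode the chains found in nearly all basement membranes, and the Col4a3, Col4a4 and Col4a5 chains make up the mature glomerular basement membrane. All 6 had a higher H3K4 level in mK4, and for 3 of them, Col4a3, Col4a5 and Col4a6, the interval rule was met. Col4a1 had 21.4 RPKM in mK4 and 17.9 RPKM in mK3 under the H3K4 label, 15.3 RPKM in mK4 and 13.2 RPKM in mK3 for H3K27, and 14.7 RPKM in mK4 and 15.4 RPKM in mK3 in input, and no interval of its 3 ratios left 1. Col4a2, its neighbour on chromosome 8, differed for H3K27, with 9.31 RPKM in mK4 and 17.4 RPKM in mK3, or 1.88-fold lower (1.20 to 3.01). Its H3K4 level was 14.7 RPKM in mK4 and 13.8 RPKM in mK3 and its input 22.8 RPKM in mK4 and 16.4 RPKM in mK3, and its H3K27 share was 0.409 times input in mK4 (0.252 to 0.650) and 1.07 times in mK3 (0.693 to 1.67).

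Col4a3 and Col4a4, on chromosome 1, both had lower H3K27 values in mK4, short of 1.5-fold. Col4a3 had an H3K27 level of 19.0 RPKM in mK4 and 26.1 RPKM in mK3, a ratio of 0.727 (0.543 to 0.967), and an H3K4 level of 16.0 RPKM in mK4 and 8.53 RPKM in mK3, a ratio of 1.88 (1.30 to 2.74). Its input was level, at 15.8 RPKM in mK4 and 15.6 RPKM in mK3. The 2 marks at Col4a3 thus differed in opposite directions over an even input. Col4a4 had 11.9 RPKM in mK4 and 16.1 RPKM in mK3 for H3K27, 12.3 RPKM in mK4 and 10.7 RPKM in mK3 under the H3K4 label, and 18.1 RPKM in mK4 and 13.5 RPKM in mK3 in input, and the intervals of all 3 ratios held 1.

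Col4a5 and Col4a6 lie on chromosome X and Col11a1, Col24a1 and Col25a1 on chromosome 3, and these 5 genes were the only collagens higher in mK4 by the interval rule in all 3 kinds of library. Col24a1, a fibrillar collagen of developing bone, reached the highest H3K27 level of the family, 58.3 RPKM in mK4 and 15.0 RPKM in mK3, a ratio of 3.89 (2.92 to 5.24). Its input differed as much, at 42.8 RPKM in mK4 and 10.3 RPKM in mK3, a ratio of 4.17 (2.65 to 6.83), and its H3K4 level was 31.9 RPKM in mK4 and 12.1 RPKM in mK3. The transmembrane collagen gene Col25a1 had 45.1 RPKM in mK4 and 25.1 RPKM in mK3 for H3K27, 21.2 RPKM in mK4 and 6.24 RPKM in mK3 under the H3K4 label, and 30.3 RPKM in mK4 and 11.9 RPKM in mK3 in input. Each of its 3 ratios lay between 1.80 and 3.40. Col11a1, the second type XI chain, had 25.8 RPKM in mK4 and 12.9 RPKM in mK3 for H3K27, 17.4 RPKM in mK4 and 8.69 RPKM in mK3 under the H3K4 label, and 29.6 RPKM in mK4 and 18.4 RPKM in mK3 in input.

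The X-linked pair behaved alike. Col4a5 had 17.0 RPKM in mK4 and 8.47 RPKM in mK3 for H3K27, 21.1 RPKM in mK4 and 8.70 RPKM in mK3 under the H3K4 label, and 24.4 RPKM in mK4 and 8.57 RPKM in mK3 in input. Col4a6 had 16.1 RPKM in mK4 and 9.32 RPKM in mK3 for H3K27, 20.3 RPKM in mK4 and 6.78 RPKM in mK3 under the H3K4 label, and 21.3 RPKM in mK4 and 8.16 RPKM in mK3 in input. The neighbours of these genes shared the input difference. Over the 10 genes on each side, the log2 input difference was 1.29 around Col24a1, 1.26 around Col25a1, 1.12 around Col11a1, 1.19 around Col4a5 and 1.25 around Col4a6. Over the whole of chromosome 3 the median gene had a log2 difference of 0.66 for H3K4, 0.67 for H3K27 and 0.72 for input (1013 genes), and over the whole of X 0.14 for H3K4, 0.19 for H3K27 and 0.14 for input (961 genes). With the own input difference subtracted, H3K27 was -0.06 for Col24a1, -0.39 for Col25a1, 0.28 for Col11a1, -0.47 for Col4a5 and -0.53 for Col4a6 on the log2 scale, so that 4 of the 5 no longer lay higher in mK4. For H3K4 the same subtraction left -0.62 for Col24a1, 0.24 for Col25a1, 0.25 for Col11a1, -0.21 for Col4a5 and 0.16 for Col4a6, so that 2 of the 5 no longer did.

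A further set of collagens differed for H3K27 while the input did not. Col8a1, a short-chain collagen of vessel walls and of the basement membrane of the corneal endothelium, had the largest such difference. Its H3K27 level was 39.0 RPKM in mK4 and 12.5 RPKM in mK3, from 96 reads in mK4 and 38 in mK3, a ratio of 3.11 (2.12 to 4.66). Its H3K4 level was 13.4 RPKM in mK4 and 13.1 RPKM in mK3 and its input 20.2 RPKM in mK4 and 20.7 RPKM in mK3, both even. Over input the H3K27 share was 1.93 times in mK4 (1.32 to 2.86) and 0.605 times in mK3 (0.369 to 0.995), above input in one line and below it in the other. The upper bound in mK3 lay close to 1. With libraries scaled by median-ratio size factors in place of totals, Col8a1 was no longer below input in mK3. Col9a3, a chain of the cartilage FACIT collagen of type IX, had 33.9 RPKM in mK4 and 11.7 RPKM in mK3 for H3K27, a ratio of 2.90 (1.68 to 5.16), with 47 reads in mK4 and 20 in mK3. Its H3K4 level was 10.7 RPKM in mK4 and 12.3 RPKM in mK3 and its input 8.99 RPKM in mK4 and 8.93 RPKM in mK3, from only 10 input reads in mK4 and 8 in mK3.

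In the other direction, Col7a1, which forms the anchoring fibrils below the epidermis, and Col18a1, a multiplexin of basement membranes and the source of endostatin, held less H3K27 in mK4. Col7a1 had 10.04 RPKM in mK4 and 23.2 RPKM in mK3 for H3K27, or 2.31-fold lower (1.63 to 3.32), 17.7 RPKM in mK4 and 16.6 RPKM in mK3 under the H3K4 label, and 18.0 RPKM in mK4 and 18.3 RPKM in mK3 in input. Col18a1 had 8.55 RPKM in mK4 and 20.5 RPKM in mK3 for H3K27, or 2.40-fold lower (1.49 to 3.99), 18.7 RPKM in mK4 and 18.1 RPKM in mK3 under the H3K4 label, and 15.1 RPKM in mK4 and 13.8 RPKM in mK3 in input. In both genes H3K27 lay below input in mK4, at 0.556 times for Col7a1 (0.372 to 0.826) and 0.567 times for Col18a1 (0.322 to 0.985), and not beyond counting error from it in mK3. Col15a1, the other multiplexin, had an H3K27 ratio of 0.870 whose interval held 1 (0.614 to 1.22).

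Type VI collagen, which forms beaded filaments around cells, was divided. Col6a1 was lower in mK4 for both marks over an even input, with 9.84 RPKM in mK4 and 19.3 RPKM in mK3 for H3K27 (1.96-fold lower, 1.13 to 3.55), 9.43 RPKM in mK4 and 18.4 RPKM in mK3 under the H3K4 label (1.95-fold lower, 1.18 to 3.28) and 14.8 RPKM in mK4 and 14.4 RPKM in mK3 in input. Col6a2, beside it on chromosome 10, differed in neither mark by the interval rule. Col6a4 had 20.3 RPKM in mK4 and 33.4 RPKM in mK3 for H3K27, or 1.64-fold lower (1.24 to 2.21), 9.18 RPKM in mK4 and 13.5 RPKM in mK3 under the H3K4 label, and 12.8 RPKM in mK4 and 17.2 RPKM in mK3 in input. Col6a6 was marked by H3K27 in mK4, at 2.83 times its input (1.72 to 4.84), and was 1.25 times in mK3 (0.853 to 1.87). That difference came with its input and not with its H3K27 level, which was 20.9 RPKM in mK4 and 21.3 RPKM in mK3, over an input of 7.38 RPKM in mK4 and 17.0 RPKM in mK3 and an H3K4 level of 6.09 RPKM in mK4 and 9.59 RPKM in mK3.

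Among the FACIT and transmembrane genes, Col9a1, another type IX chain, was the collagen whose H3K4 level was most clearly higher in mK4 over an even input. It had 14.6 RPKM in mK4 and 4.71 RPKM in mK3 under the H3K4 label, from 41 reads in mK4 and 11 in mK3, a ratio of 3.11 (1.57 to 6.70). Its H3K27 level was 21.7 RPKM in mK4 and 22.8 RPKM in mK3 and its input 13.2 RPKM in mK4 and 12.3 RPKM in mK3. The excess rests on a low value in mK3, where its H3K4 share was 0.384 times input (0.159 to 0.894), against 1.11 times in mK4 (0.636 to 2.00). The remaining type IX gene, Col9a2, had 19.4 RPKM in mK4 and 13.4 RPKM in mK3 for H3K27, a ratio of 1.46 (0.794 to 2.70) whose interval overlaps that of Col9a3, with 10.1 RPKM in mK4 and 12.1 RPKM in mK3 under the H3K4 label and 9.31 RPKM in mK4 and 9.25 RPKM in mK3 in input. Col13a1, a transmembrane collagen of the neuromuscular junction, was lower in mK4 in all 3 kinds of library, with 19.1 RPKM in mK4 and 37.3 RPKM in mK3 for H3K27, 9.05 RPKM in mK4 and 17.1 RPKM in mK3 under the H3K4 label, and 8.79 RPKM in mK4 and 20.7 RPKM in mK3 in input.

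Col20a1 and Col23a1 were higher for H3K27 in mK4 together with their input. Col20a1 had 27.5 RPKM in mK4 and 16.8 RPKM in mK3 for H3K27, a ratio of 1.64 (1.08 to 2.51), 10.6 RPKM in mK4 and 7.95 RPKM in mK3 under the H3K4 label, and 15.9 RPKM in mK4 and 5.32 RPKM in mK3 in input. Its mark in mK3, 3.15 times input (1.40 to 8.31), rests on 7 input reads. Col23a1 had 23.7 RPKM in mK4 and 15.7 RPKM in mK3 for H3K27, a ratio of 1.51 (1.04 to 2.22), 16.0 RPKM in mK4 and 13.9 RPKM in mK3 under the H3K4 label, and 24.1 RPKM in mK4 and 14.1 RPKM in mK3 in input.

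In all, 19 of the 41 collagens met the interval rule for neither mark, which at these depths does not show that they were alike in the lines. Of these 19, Col10a1, Col14a1, Col19a1, Col5a2 and Col6a6 were lower in mK4 in input alone. Col14a1, a FACIT collagen of dense connective tissue, had 22.4 RPKM in mK4 and 26.0 RPKM in mK3 for H3K27, 15.1 RPKM in mK4 and 21.5 RPKM in mK3 under the H3K4 label, and 10.7 RPKM in mK4 and 25.2 RPKM in mK3 in input. Its H3K27 share was thus 2.08 times input in mK4 (1.32 to 3.38) and 1.03 times in mK3 (0.728 to 1.47). Col12a1, of the same tissues, was lower in mK4 for H3K27 with an interval off 1 but short of 1.5-fold, at a ratio of 0.691 (0.513 to 0.925), from 13.1 RPKM in mK4 and 19.0 RPKM in mK3, and its H3K4 ratio was 0.759 (0.595 to 0.968) and its input ratio 0.778 (0.570 to 1.06). Col19a1, a FACIT collagen, had 19.6 RPKM in mK4 and 22.6 RPKM in mK3 for H3K27, 8.46 RPKM in mK4 and 11.1 RPKM in mK3 under the H3K4 label, and 9.52 RPKM in mK4 and 16.1 RPKM in mK3 in input. It was one of the genes above input for H3K27 in both lines.

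Col10a1, the collagen of hypertrophic cartilage, had the lowest H3K27 level of the family in mK4, at 5.97 RPKM in mK4 and 12.4 RPKM in mK3, with a ratio of 0.482 whose wide interval held 1 (0.196 to 1.08), and its input was 5.78 RPKM in mK4 and 15.4 RPKM in mK3. Col17a1, the transmembrane collagen of the hemidesmosome, had 25.4 RPKM in mK4 and 17.5 RPKM in mK3 for H3K27, 10.7 RPKM in both lines under the H3K4 label, and 17.9 RPKM in mK4 and 11.1 RPKM in mK3 in input. The short-chain gene Col8a2, the partner of Col8a1 in type VIII collagen, had 19.7 RPKM in mK4 and 17.9 RPKM in mK3 for H3K27, 11.95 RPKM in mK4 and 10.46 RPKM in mK3 under the H3K4 label, and 15.5 RPKM in mK4 and 11.9 RPKM in mK3 in input. Its H3K27 ratio of 1.10 (0.703 to 1.71) lay below the interval of Col8a1. Col28a1 had 19.98 RPKM in mK4 and 21.3 RPKM in mK3 for H3K27, 10.2 RPKM in mK4 and 10.6 RPKM in mK3 under the H3K4 label, and 16.4 RPKM in mK4 and 20.3 RPKM in mK3 in input. Both Col8a2 and Col28a1 lay above the H3K4 label for H3K27 in each line by their intervals. Col16a1 had an H3K27 level of 12.6 RPKM in mK4 and 9.27 RPKM in mK3 over an input of 22.5 RPKM in mK4 and 26.2 RPKM in mK3, and Col22a1 one of 14.1 RPKM in mK4 and 18.8 RPKM in mK3 over an input of 7.10 RPKM in mK4 and 10.4 RPKM in mK3.

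Lists of genes that make, process and bind collagen were read in the same way, against the 9.06% in mK4 and 10.3% in mK3 of all genes marked by H3K27 and the 3.69% in mK4 and 4.94% in mK3 marked by H3K4. Of 20 biosynthesis genes (prolyl and lysyl hydroxylases, chaperones), 2 were marked by H3K27 in mK4 (10%), Fkbp10 and Leprel2, and 0 in mK3. The list had an H3K27 median over input of -0.16 in mK4 and -0.22 in mK3 on the log2 scale, where the collagens had 0.45 in mK4 and 0.30 in mK3 and all genes 0.00. Fkbp10, which encodes a collagen chaperone, had 34 H3K27 reads in mK4 and 24 in mK3, over 8 input reads in mK4 and 19 in mK3. Of 14 maturation genes (propeptide proteases and lysyl oxidases), Pcolce2 was marked by H3K4 in mK4 and Loxl1 in mK3 (7.14% in each line), and 0 by H3K27. Of 10 receptor genes, Lair1 was marked by H3K27 in mK3 (10%), on 3 input reads. Of 15 partners of type IV collagen in basement membranes, H3K27 marked the laminin chains Lama1, Lama3 and Lama4 in mK4 (20%) and Lama5 in mK3 (6.67%), and the list median was -0.10 in mK4 and 0.45 in mK3. None of these 59 genes was marked and at least 2-fold different between the lines for either mark.

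Marker lists of the cell types that such lines could hold were set against the same shares of all genes. Of 12 mesenchymal markers, H3K4 marked 0 in mK4 and Twist1 and Snai1 in mK3 (16.7%), and both were also called lower in mK4, where 0.392% of all genes were. The H3K4 median of the list over input was -0.02 in mK4 and 0.36 in mK3. H3K27 marked Pdgfra alone in mK4 (8.33%) and 0 in mK3. Of 9 epithelial markers, H3K27 marked Cdh1, Epcam and Esrp1 in mK4 (33.3%) and Epcam and Esrp1 in mK3 (22.2%), H3K4 marked Esrp1 in mK3 (11.1%), and the H3K27 median was 0.50 in mK4 and 0.58 in mK3. Of 8 endothelial markers, Tek was marked in mK4 by both H3K27 and H3K4 and Cdh5 in mK3 by H3K27, each 12.5%, and Cdh5 was called lower in mK4 for H3K27, where 0.934% of all genes were. The H3K27 median of this list was 0.30 in mK4 and 0.60 in mK3. Of 6 blood markers, H3K27 marked Cd4 and Itgam in mK4 and Cd3e and Cd4 in mK3 (33.3% in each line), with a median of 0.72 in mK4 and 0.69 in mK3. Of 10 metanephric mesenchyme markers, H3K27 marked 0 in mK4 and Six2 in mK3 (10%), with a median of -0.31 in mK4 and 0.29 in mK3. On the log2 scale with pseudocount, 3 of the 10 lay above input for H3K27 in mK4 and 8 in mK3. Of all genes, 47.0% did in mK4 and 49.7% in mK3. The part of cell type in the collagen differences was not tested.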

How the data were processed

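ChIP-seq reads of 6 libraries, 1 per line and antibody or input, were grouped by sample title. The authors deposited whole-number read counts per gene, an exon length and an RPKM value per gene, with 22088 rows in the same order in each file, per the file headers. The deposited RPKM values equalled the counts per kilobase of exon, scaled to each library's counted reads, to within 4.21e-07. The submitters' processing notes name build mm9. The aligner is not given in the sources used here. Reads were summed over exons, so promoters are outside the counts.

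Where a symbol had several rows (137 symbols, none a collagen), the row highest on average in ChIP was used, giving 21937 genes. Libraries were brought to equal totals of 513622 reads, and log2 ratios were taken with a pseudocount of 5. A gene was called marked at 2-fold or more over its own input, and different between the lines when marked in either and 2-fold apart. Ratios of read shares carry no pseudocount and an exact Clopper-Pearson interval of 95%. The interval rule needs an interval off 1 and, between the lines, a ratio of at least 1.5-fold. No test was made, since each group has 1 library, and intervals cover counting error only. The difference of input over the 10 genes on each side used the gene order of RefSeq GRCm38.p6 (19325 genes matched by symbol, 2302 by synonym, 310 unmatched). Python 3.11.15 with numpy 2.4.6, pandas 2.3.3 and scipy 1.17.1 was used, and the scripts were tested on simulated data.

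Every collagen was given with values, in full those marked in a line, those that met the interval rule between the lines for H3K4 or H3K27, and Col1a1, Col1a2, Col3a1 and Col4a1 to Col4a6. Of the other cell type and collagen-related lists, genes marked or called different between the lines were named, at most 4 per list and mark. The members, classes and lists were chosen with earlier results of these data known. Alternatives were pseudocounts of 1 and 10, median-ratio size factors, a filter at a mean of 10 scaled reads, exon length in place of input, summed rows, subtraction of the gene's own or its neighbours' input difference, division by the input ratio, and leaving out chromosomes 3, 7, 14 and X. The size factors and chromosomes were applied to the interval counts and family sums after the data were seen.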

Additional observations from a re-analysis of the deposited data

Results flagged for a closer look

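With libraries scaled to equal totals, 1 collagen lay above input in one line and below it in the other for H3K27. The H3K27 share of Col8a1 was 1.93 times its input share in mK4 (95% counting interval 1.32 to 2.86) and 0.605 times in mK3 (0.369 to 0.995), from 96 H3K27 and 40 input reads in mK4 and 38 H3K27 and 33 input reads in mK3. The upper bound in mK3 lay close to 1. With median-ratio size factors, 3 collagens and not 4 lay below input for H3K27 in mK3, and Col8a1 was the one no longer below. The difference between the lines was not tested, since each value comes from 1 library. Among the 10 genes on each side the log2 input difference was -0.33, and with it subtracted the H3K27 difference of Col8a1 was 1.83 on the log2 scale.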

How the results depend on the processing

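No paired analysis was possible because each group held 1 library. Leaving out a library was likewise not possible. Collagens marked by H3K27 in mK4 numbered 9 with a pseudocount of 1, against 4 with 5. H3K4 marked 0 in mK4, against 1, with a pseudocount of 10 and with exon length as background. Exon length also gave 2 marked by H3K4 in mK3 (Col1a1 and Col1a2), against 0, and 1 lower for H3K4 (Col1a1), against 0. The genes called for H3K27 changed too: in mK4 it marked Col24a1, Col25a1 and Col8a1 and none of the 4 genes marked over input, in mK3 Col13a1 and Col2a1 in place of Col20a1 and Col2a1, and its 2 genes higher for H3K27 were Col24a1 and Col8a1 in place of Col11a2 and Col9a3. Subtracting the own input gave 1 higher for H3K4 (Col6a2), against 0, and 3 higher for H3K27 (Col6a2, Col6a6 and Col9a3), against 2. Subtracting the neighbouring input gave 1 higher for H3K27 (Col11a2), against 2. Neither Col11a2 nor Col9a3 was thus called under both subtractions.

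Without chromosomes 3, 7, 14 and X, the summed mK4 over mK3 ratio was 0.617 for fibrillar H3K4, 0.877 for fibrillar H3K27 (reversed from 1.19), 1.29 for type IV H3K4 and 0.759 for type IV H3K27. The genes higher in mK4 by the interval rule then numbered 2 for H3K4, 5 for H3K27 and 2 for input, against 7, 10 and 7. The summed ratios without these chromosomes were not divided by the input of the remaining genes, so they show no direction relative to input. With all chromosomes kept and divided by the input ratio, the sums were 1.08 for type IV H3K4, 0.645 for type IV H3K27, 1.04 for H3K4 of the other collagens (reversed from 0.917) and 1.08 for their H3K27. Median-ratio size factors gave 2 genes above input for H3K4 in mK4, against 1, and 4 below input for H3K27 in mK4, against 7. In mK3 they gave 3 below input for H3K27, against 4, with Col8a1 no longer below. The causes were not tested beyond the construction of each alternative.

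Among the genes that met the interval rule between the lines (12 for H3K4 and 18 for H3K27), the difference between the lines reversed when the own input was subtracted for H3K4 of Col13a1 (0.26), Col1a2 (0.19), Col24a1 (-0.62) and Col4a5 (-0.21), and for H3K27 of Col13a1 (0.13), Col1a1 (0.71), Col20a1 (-0.61), Col23a1 (-0.16), Col24a1 (-0.057), Col25a1 (-0.39), Col4a5 (-0.47) and Col4a6 (-0.53), on the log2 scale. It reversed when the neighbouring input was subtracted for H3K4 of Col11a1 (-0.22) and Col4a5 (-0.042), and for H3K27 of Col11a1 (-0.18), Col25a1 (-0.48), Col4a5 (-0.30) and Col4a6 (-0.54). Of the 52 differences that did not meet that rule, 29 changed sign with the own input subtracted and 13 with the neighbouring input. Of all 82 differences (41 genes, 2 marks), 0 changed sign with either pseudocount and 2 did with the size factors, Col6a6 and Col9a1 for H3K27, both near 0. These 3 settings kept every difference within its counting interval. Input held between 7 and 119 reads per collagen in mK4 and between 7 and 88 in mK3, which limits every ratio to input.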
